A study of Mus musculus with 8 samples.

Results

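Chromatin accessibility at 4 immediate early gene loci, Fos, Egr1, Junb and Ier2, was examined in sorted mouse MPP2 cells. The loci were fixed mm9 windows around each gene: chromosome 12 from 86800000 to 86835000 for Fos, chromosome 18 from 35010000 to 35035000 for Egr1, and on chromosome 8 from 87490000 to 87512000 for Junb and from 87175000 to 87195000 for Ier2. Every peak of the deposited table that overlapped a window was taken, which gave 8 peaks at Fos, 7 at Egr1, 10 at Junb and 7 at Ier2, or 32 of 134473 peaks in all. The windows use gene positions and no measured value.

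Immediate early genes are transcribed within minutes of a growth factor, cytokine or stress signal, from transcription factors already present in the cell. Their promoters are typically open before induction. Fos and Junb encode subunits of the AP-1 transcription factor, in which a Fos protein pairs with a Jun protein. Egr1 encodes a zinc finger transcription factor that is known in blood stem cells for its link to quiescence, and Ier2 encodes a small nuclear protein of the early growth response. Transcripts of this class are also known to rise when tissue is dissociated and cells are sorted, and transcripts were not measured here.

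The cells were MPP2 progenitors from the bone marrow of C57BL/6 mice aged 8 to 12 weeks. MPP2 cells are multipotent progenitors biased toward megakaryocytes and red cells, and all libraries share the gate LSK (lineage-negative, Sca1-positive, Kit-positive), Flt3-negative, CD150-positive and CD48-positive. One group was sorted as Vwf+Gata1+ and the other as Vwf-Gata1+, with 500 cells in each library and 4 libraries in each group. The labels do not say how Vwf and Gata1 were detected. They also do not tie libraries to animals, and the p-values then reflect only library-to-library spread, some of it possibly technical. The sorted identity was not checked against marker loci, because peaks were not assigned to genes. Total counts in peaks ran from 4628997 to 7753538 per library.

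The sequences shown are the 250 bases before the RefSeq start of Fos and of Junb, the 2 of the 4 genes matched in the RefSeq promoter table. They are shown because they were searched for the elements through which immediate early genes are known to be switched on. The table is on GRCm38.p6, where the Fos sequence is chr12:85473640-85473889 on the plus strand and the Junb sequence is chr8:84978749-84978998 on the minus strand. These positions cannot be compared with the mm9 peak positions, and none was converted. Capitals mark every match, on either strand, to the motifs searched.
Fos: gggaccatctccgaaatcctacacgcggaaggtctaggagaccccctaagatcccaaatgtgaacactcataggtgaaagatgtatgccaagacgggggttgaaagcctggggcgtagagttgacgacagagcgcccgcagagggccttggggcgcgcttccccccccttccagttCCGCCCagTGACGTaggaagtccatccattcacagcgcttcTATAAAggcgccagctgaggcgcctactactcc
Junb: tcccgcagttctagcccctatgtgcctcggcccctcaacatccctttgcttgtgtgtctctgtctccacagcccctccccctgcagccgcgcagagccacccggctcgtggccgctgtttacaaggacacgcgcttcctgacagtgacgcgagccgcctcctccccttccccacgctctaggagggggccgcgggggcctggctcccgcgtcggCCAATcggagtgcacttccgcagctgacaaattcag

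The Fos sequence holds 3 matches close to its start. The GC box GGGCGG lies on the minus strand at 74 to 69 bases before the start, TGACGT lies at 66 to 61, and the TATA box TATAAA at 33 to 28. TGACGT is the core of the cyclic AMP response element, the site of CREB proteins. The Junb sequence holds 1 match, CCAAT at 36 to 32 bases before the start. Of 32851 RefSeq mouse promoter sequences of the same length, 32.7% hold GGGCGG, 6.47% TGACGT, 12.4% TATAAA and 33.8% CCAAT on either strand. TGACGT and CCAAT were added after the sequences were seen, and TGACGT is contained in the full response element TGACGTCA. No match was found in either sequence to TGACGTCA (1.55% of promoters), the AP-1 site TGACTCA (4.46%), the ETS motif CCGGAAG (6.91%), the EGR motif GCGTGGGCG (0.536%) or the CArG box of serum response factor (1.47%). These letters are then not in these windows, which says nothing of sites outside them. The GC content was 58.4% for Fos and 66.4% for Junb, against a median of 52.4% over all promoters. Of these promoters, 67.8% had a lower GC content than Fos and 85.2% a lower one than Junb.

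All 4 loci were open in both subpopulations, and none of their peaks differed between Vwf+Gata1+ and Vwf-Gata1+ cells past the threshold. All 32 peaks had enough counts to be tested. In edgeR's quasi-likelihood test 0 of 32 passed an adjusted p of 0.05, where 0.0144% of the 97040 tested peaks did, and the lowest adjusted p among the 32 was 0.749. At an unadjusted p under 0.05 there were also 0 of 32, where 6.72% of all tested peaks reached it. DESeq2 and limma-voom called 0 of 32 as well, but they called only 8 and 1 of all tested peaks. Each had 0 of 32 at an unadjusted p under 0.05, for which no share over all peaks was taken. The log2 fold changes, Vwf+Gata1+ over Vwf-Gata1+ throughout, ran from -0.22 to 0.32 with a median of 0.04, against a median of 0.00 over all tested peaks. In 21 peaks the value was above 0 and in 11 below 0, where 50.7% of all tested peaks were above 0.

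How small a difference could be bounded was read from the 95% intervals, which are not adjusted for the number of peaks. The interval lay within 1.5-fold in either direction at 24 of the 32 peaks, a width reached at 41.5% of all tested peaks, and within 2-fold at 31 of 32, against 85.6%. The members were mostly strong peaks, and in the strongest of 3 equal signal classes 28800 of 32347 intervals lay within 1.5-fold. A difference in openness per cell and a difference in the share of cells that are open cannot be told apart in these bulk libraries.

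**Figure D1:**
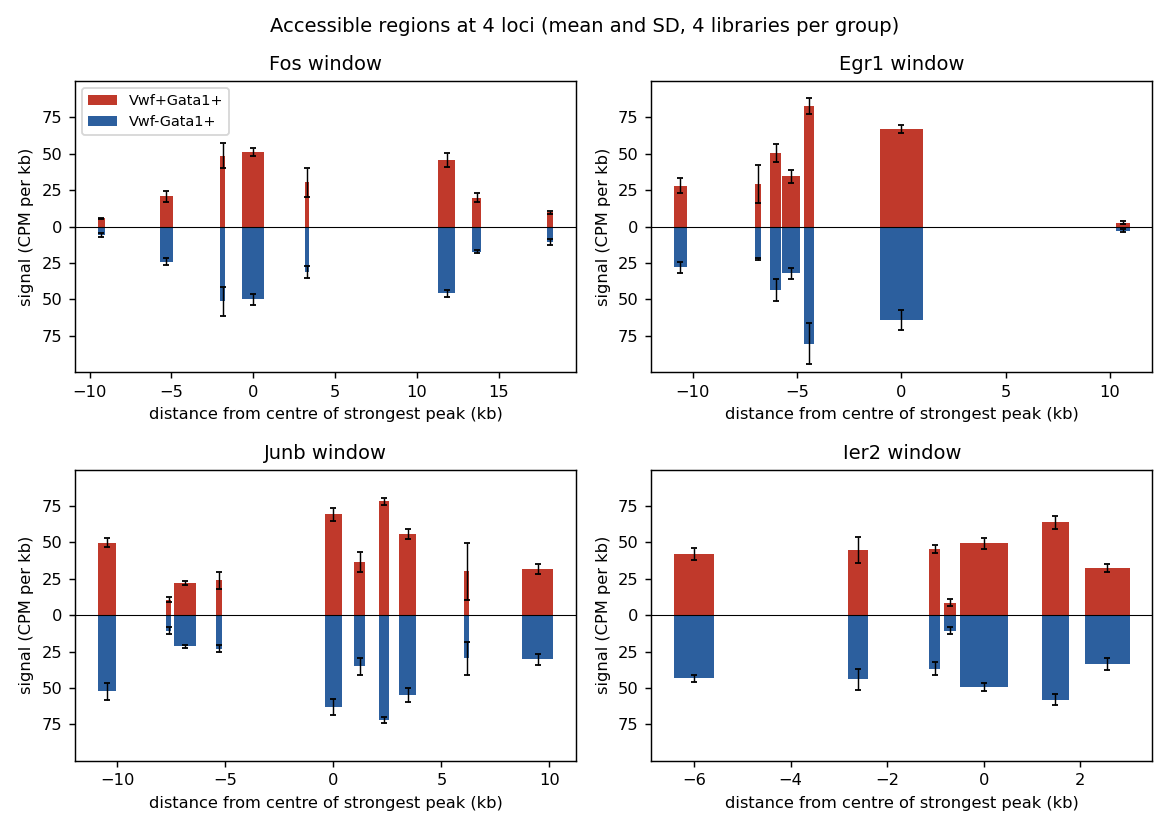
Each panel plots the signal per kb of peak (CPM per kb) of every peak of a window against the distance from the centre of its strongest peak, with bars as wide as the peaks. Red bars point up for Vwf+Gata1+ cells and blue bars down for Vwf-Gata1+ cells, with SD over 4 libraries, and the upward and downward bars mirror each other at all 4 loci.

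At Fos, the strongest peak was the one that holds the gene start given with the window, at about 86814900. It lay at chromosome 12, 86814397 to 86815775, was 1379 bp wide, and had stronger signal than 99.1% of all peaks. Signal is given as CPM, the count scaled to the depth of its library. In Vwf+Gata1+ cells its signal was 69.9, 75.6, 66.9 and 69.3 CPM in replicates 1 to 4. In Vwf-Gata1+ cells it was 61.7, 69.8, 73.1 and 71.5 CPM. The groups overlapped, with the highest library in the first group and the lowest, replicate 1, in the second. The means were 70.4 ± 3.69 and 69.0 ± 5.08 CPM (SD, n = 4 each). This is a log2 fold change of 0.03 ± 0.08 (SE; adjusted p = 0.977 in edgeR) with a 95% interval from -0.14 to 0.20.

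The Fos peak next in strength was at 86826412 to 86827398, with its centre 11.8 kb toward higher coordinates, beyond the given gene end at about 86818200. Its signal was 44.8, 41.8, 51.6 and 42.1 CPM in the Vwf+Gata1+ libraries and 42.7, 44.0, 48.2 and 45.5 CPM in the Vwf-Gata1+ libraries. Replicate 3 was the highest library of each group, and the groups overlapped almost fully, with a log2 fold change of -0.0043 ± 0.09 (SE; adjusted p = 0.997 in edgeR). Per kb of peak, the 342 bp peak at 86813046 to 86813387, before the gene start, was as open as the strongest peak, with 50.1 against 50.6 CPM per kb. It had 16.6 ± 2.94 CPM in the Vwf+Gata1+ libraries and 17.6 ± 3.48 CPM in the Vwf-Gata1+ libraries (SD, n = 4 each). A peak of 839 bp at 86809365 to 86810203 had 17.3 ± 3.19 CPM and 20.2 ± 1.84 CPM, the largest difference of the Fos peaks on the log2 scale at -0.22 ± 0.13 (SE; adjusted p = 0.807 in edgeR). The other 4 Fos peaks had mean signals from 2.42 to 10.9 CPM in the Vwf+Gata1+ libraries and counts of 10 to 94 per library. One of them, at 86818257 to 86818503, starts just past the given gene end. Of the 8 Fos peaks, 2 had values above 0 and 6 below 0, with a median of -0.03.

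At Egr1, the strongest peak was the widest and strongest of all 32. It lay at chromosome 18, 35019413 to 35021443, held the given gene start at about 35020900, and was 2031 bp wide. Its signal exceeded that of 99.97% of all peaks. In Vwf+Gata1+ cells it was 141.4, 138.3, 128.3 and 138.5 CPM in replicates 1 to 4, and in the Vwf-Gata1+ libraries 115.4, 123.8, 148.4 and 134.6 CPM. The second group held both the highest and the lowest library, so the first lay inside its range. The means were 136.6 ± 5.71 and 130.5 ± 14.3 CPM (SD, n = 4 each). This is a log2 fold change of 0.07 ± 0.08 (SE; adjusted p = 0.929 in edgeR) with a 95% interval from -0.10 to 0.24.

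A cluster of 4 further Egr1 peaks lay within 35013397 to 35016227, at lower coordinates than the gene start. The nearest of them to the gene, at 35015768 to 35016227, was next in signal at this locus and the densest of all 32 peaks, with 81.7 CPM per kb, above 99.9% of all peaks. Its signal was 40.2, 34.3, 39.0 and 38.7 CPM in the Vwf+Gata1+ libraries and 32.5, 30.6, 43.5 and 41.7 CPM in the Vwf-Gata1+ libraries, again with the wider range in the second group. Its log2 fold change was 0.05 ± 0.10 (SE; adjusted p = 0.971 in edgeR). The peaks at 35014708 to 35015557 and 35014147 to 35014671 had log2 fold changes of 0.10 ± 0.11 and 0.21 ± 0.12 (SE). The 281 bp peak at 35013397 to 35013677, described after its values were seen, had the largest value of the 32, 0.32 ± 0.21 (SE; adjusted p = 0.834 in edgeR). Replicate 3 of the Vwf+Gata1+ libraries stood at 13.5 CPM there, against 5.27, 7.32 and 6.76 CPM in the other libraries of its group and 6.00 to 6.57 CPM in the Vwf-Gata1+ libraries. Without that library the log2 fold change was 0.02. The peak at 35009536 to 35010132, most of which lies outside the window's start at 35010000, had 16.8 ± 2.93 and 16.7 ± 2.31 CPM (SD, n = 4 each). The peak at 35030708 to 35031371, inside the window, was the weakest of the 32, with counts of 6 to 21. The only Egr1 value below 0 was at this weakest peak, -0.02 ± 0.34 (SE).

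At Junb no gene position was given with the window, so its peaks are described by their place. In the GRCm38.p6 gene table the neighbours of Junb are Prdx2, a peroxiredoxin gene, and Hook2, and some peaks of the window may belong to them. The full widths of the 10 peaks came to 29.6% of the window's length, the highest share of the 4 loci, against 14.7% at Fos. Part of this lies outside the window, because the peak at 87489465 to 87490284 crosses its edge. The strongest lay at chromosome 8, 87499978 to 87500761. Its signal was 59.1, 53.7, 53.4 and 51.2 CPM in the Vwf+Gata1+ libraries and 55.3, 45.1, 48.4 and 49.6 CPM in the Vwf-Gata1+ libraries. Replicate 1 was the highest library in each group, and its Vwf-Gata1+ library lay above 3 libraries of the other group. The means were 54.3 ± 3.38 and 49.6 ± 4.26 CPM (SD, n = 4 each). This is a log2 fold change of 0.13 ± 0.09 (SE; adjusted p = 0.839 in edgeR) with a 95% interval from -0.05 to 0.31.

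The Junb peak next in strength, at 87509101 to 87510554, had 49.1, 40.2, 52.0 and 44.7 CPM in the Vwf+Gata1+ libraries and 48.4, 39.7, 39.8 and 48.7 CPM in the Vwf-Gata1+ libraries, and its groups overlapped (log2 fold change 0.07 ± 0.10 SE; adjusted p = 0.948 in edgeR). The densest Junb peak was a 452 bp peak at 87502469 to 87502920 with 75.2 CPM per kb, described after its values were seen. It had 37.0, 34.7, 34.6 and 35.4 CPM in the Vwf+Gata1+ libraries and 33.6, 32.1, 31.4 and 33.3 CPM in the Vwf-Gata1+ libraries. The groups did not overlap, although the difference was small, 35.4 ± 1.11 against 32.6 ± 1.01 CPM (SD, n = 4 each), with a log2 fold change of 0.12 ± 0.09 (SE; adjusted p = 0.865 in edgeR). Of the 32 peaks, 2 had groups that did not overlap, as had 3.88% of all tested peaks. Of the 10 Junb peaks, 9 had values above 0, and the exception was at the window's edge (87489465 to 87490284, -0.07 ± 0.09 SE). The 5 Junb peaks not named here had log2 fold changes from 0.0004 to 0.10 on counts of 9 to 358 per library.

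A narrow Junb peak of 204 bp at 87506435 to 87506638, also described after its values were seen, varied most between libraries. Its signal was 11.5, 6.76, 2.52 and 3.88 CPM in the Vwf+Gata1+ libraries and 9.02, 3.38, 5.85 and 5.98 CPM in the Vwf-Gata1+ libraries. Replicate 1 was the highest library of both groups. The coefficient of variation over the 8 libraries was 49.1%, above 99.4% of peaks of its signal class, where counting error alone would give about 15.7%. Its log2 fold change was 0.07 ± 0.45 (SE; adjusted p = 0.991 in edgeR), and the direction turned without Vwf+Gata1+ replicate 1, at -0.47, and without Vwf-Gata1+ replicate 2, at -0.13. Its 95% interval, from -0.96 to 1.10, was the only one of the 32 to leave the 2-fold range.

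At Ier2 the window gives no gene position either, and the neighbours in the gene table are the long non-coding RNA gene Gm39211 and Nacc1. The strongest of the 7 peaks lay at chromosome 8, 87186146 to 87187130. Its signal was 49.3, 52.4, 43.1 and 49.9 CPM in the Vwf+Gata1+ libraries and 52.1, 47.2, 48.4 and 46.3 CPM in the Vwf-Gata1+ libraries. The first group spanned the second. The means were 48.6 ± 3.94 and 48.5 ± 2.58 CPM (SD, n = 4 each). This is a log2 fold change of 0.0077 ± 0.09 (SE; adjusted p = 0.995 in edgeR) with a 95% interval from -0.17 to 0.19. This was the smallest difference among the strongest peaks of the 4 loci.

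The peak next in strength at Ier2, at 87180223 to 87181056, had 38.2, 33.0, 30.9 and 37.7 CPM in the Vwf+Gata1+ libraries and 36.9, 33.4, 37.8 and 36.5 CPM in the Vwf-Gata1+ libraries, and its groups overlapped (log2 fold change -0.04 ± 0.10 SE; adjusted p = 0.978 in edgeR). The densest Ier2 peak lay at 87187836 to 87188397, with 60.9 CPM per kb and 35.9 ± 2.44 against 32.5 ± 2.09 CPM (SD, n = 4 each). The lowest unadjusted p of the 32 peaks, 0.053, was at a 245 bp peak at 87185496 to 87185740, which was described after its values were seen. It had 10.3, 11.6, 11.2 and 11.5 CPM in the Vwf+Gata1+ libraries and 7.45, 9.99, 8.97 and 9.49 CPM in the Vwf-Gata1+ libraries. All 4 libraries of the first group lay above all 4 of the second, with a log2 fold change of 0.31 ± 0.16 (SE; adjusted p = 0.749 in edgeR). The peak next to it, at 87185807 to 87186065, had a value of the other sign, -0.22 ± 0.29 (SE), on counts of 6 to 25. The last 2 Ier2 peaks, at 87183823 to 87184247 and 87188736 to 87189661, had values of 0.04 ± 0.14 and -0.03 ± 0.10 (SE).

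**Figure D2:**
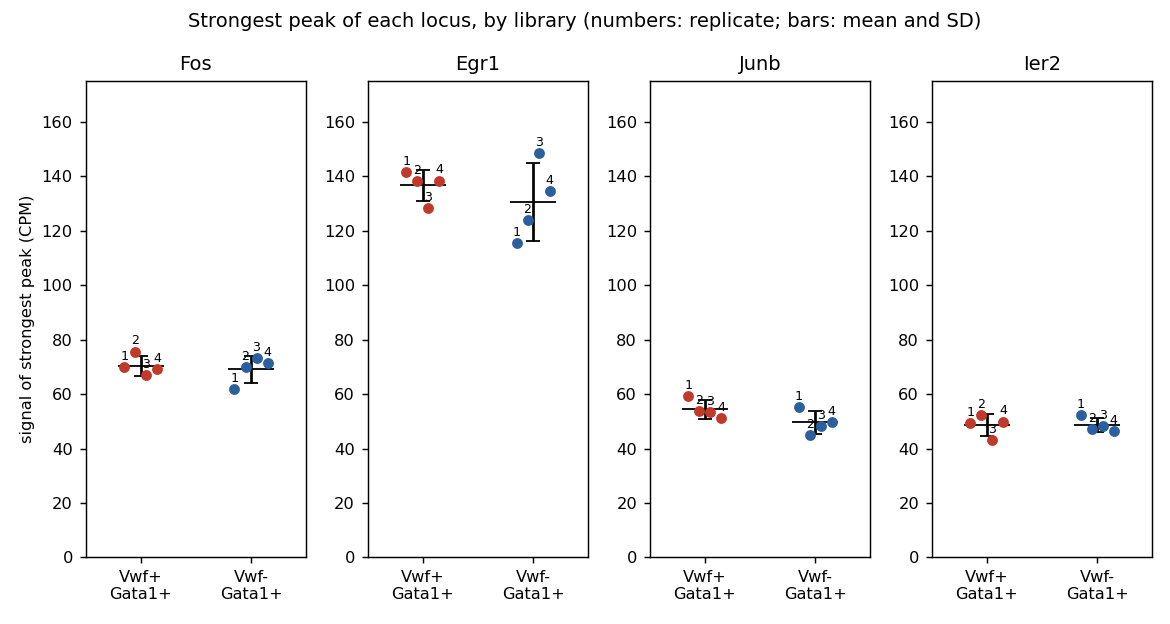
Signal (CPM) of the strongest peak of each locus in every library, with replicate numbers beside the points and bars for the mean and SD of 4 libraries. The groups overlap at each locus, and Egr1, with 115.4 to 148.4 CPM, stands above the other 3.

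**Figure D3:**
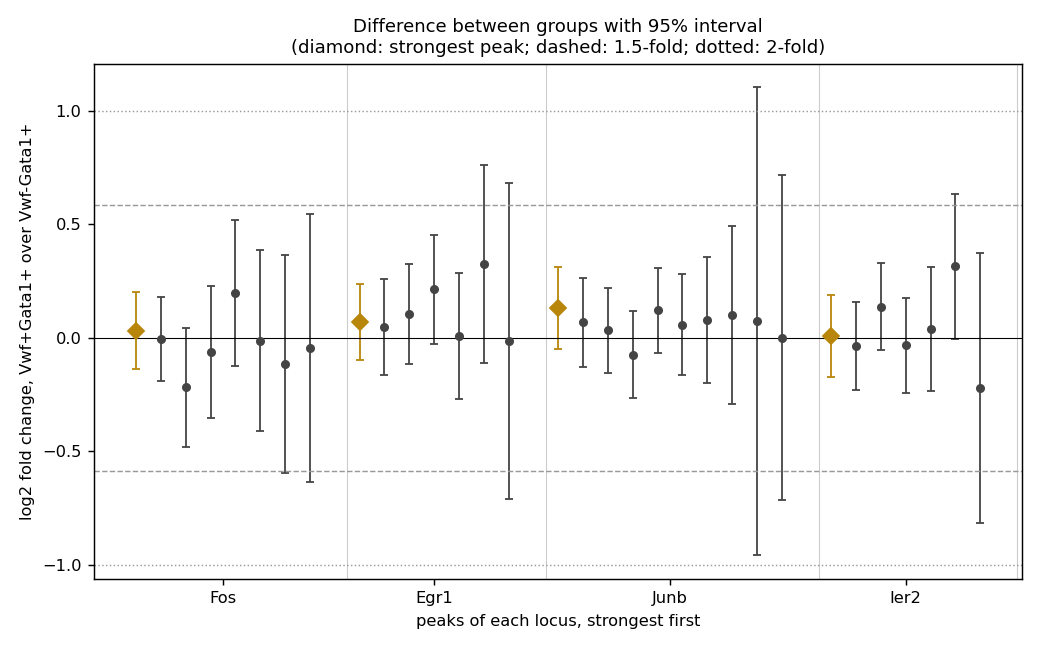
Log2 fold change of each of the 32 peaks (Vwf+Gata1+ over Vwf-Gata1+) with its 95% interval, ordered within each locus from the strongest peak, a diamond, to the weakest. Every interval includes 0, 24 lie within the dashed lines at 1.5-fold, and 31 within the dotted lines at 2-fold.

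Set per kb of peak, the strongest peaks of the 4 loci fell into 2 levels. Over the 8 libraries, Junb had 66.3 ± 5.58 and Egr1 65.8 ± 5.21 CPM per kb, and Fos had 50.6 ± 3.03 and Ier2 49.3 ± 3.13 CPM per kb (SD, n = 8 each). Junb was above Egr1 in 4 of 8 libraries and Fos above Ier2 in 6 of 8, so neither pair was ordered beyond its spread. Egr1 was above Fos in 8 of 8 libraries, and their ranges did not overlap. The median over all peaks was 6.73 CPM per kb. These peaks were picked by total signal and differ in width. The densest peak of each locus had 81.7 CPM per kb at Egr1, 75.2 at Junb, 60.9 at Ier2 and 50.6 at Fos. The 2 levels are therefore a description of the strongest peaks only.

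Summed over all peaks of a window, the signal lay in overlapping ranges in the groups. Fos had 174.0 ± 10.4 CPM in the Vwf+Gata1+ libraries and 175.6 ± 8.05 in the Vwf-Gata1+ libraries, Egr1 257.5 ± 9.84 and 242.7 ± 14.6, Junb 276.5 ± 14.2 and 265.6 ± 14.7, and Ier2 182.3 ± 10.7 and 178.8 ± 8.14 (SD, n = 4 each). The log2 ratios of these means were -0.01, 0.09, 0.06 and 0.03. No test was made on these sums. The SD within groups on the log2 scale, over all libraries, was 0.072 at Egr1, 0.077 at Fos and 0.076 at Junb and at Ier2. The Egr1 ratio was above its SD, but fell to 0.070 with total count scaling and to 0.060, 0.068 and 0.057 without Vwf+Gata1+ replicate 1, Vwf-Gata1+ replicate 1 or Vwf-Gata1+ replicate 2, all below that SD. The Junb ratio was below its SD, and rose above it to 0.077 without Vwf+Gata1+ replicate 4 and to 0.092 without Vwf-Gata1+ replicate 1. This SD describes single libraries and not the error of a difference of means. Whether a ratio lies above or below it therefore does not decide whether the groups differ.

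The loci differed in how much of the signal one peak held. The strongest peak took 53.4% of the counts of the Egr1 window on average over the 8 libraries, 40.0% at Fos, 26.9% at Ier2 and 19.1% at Junb. By group the shares were 53.1% ± 1.60 and 53.7% ± 3.15 at Egr1, 40.6% ± 3.26 and 39.3% ± 1.98 at Fos, 26.7% ± 1.40 and 27.1% ± 1.02 at Ier2, and 19.6% ± 0.296 and 18.6% ± 0.621 at Junb (SD, n = 4 each; Vwf+Gata1+ first). The group ranges overlapped at each locus, and the difference exceeded the spread within groups at Junb alone. The exact 95% binomial interval in Vwf-Gata1+ replicate 1, the lowest Egr1 library at 49.4%, ran from 47.1% to 51.8% and covers counting error only.

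Many members also had features that the windows did not select. The strongest peak had 4 other peaks within 10 kb at Fos and at Egr1, 8 at Junb and 6 at Ier2, against a median of 2 over all peaks. A count of 4 stood at percentile 82.3 of all peaks, and the weakest Egr1 peak had only 2. No comparison was made with other peaks of like strength. Per kb, 24 of the 32 peaks were above 90% of all peaks. The coefficients of variation of the strongest peaks over the 8 libraries were 5.99% at Fos, 6.35% at Ier2, 7.92% at Egr1 and 8.43% at Junb. Counting error alone would give these 4 peaks between 3.45% and 5.70%. The median of the strongest of the 3 signal classes was 12.4%, but that class also holds weaker peaks with larger counting error. At its Fos peak at 86818257 to 86818503, with 7.62 CPM, counting error alone would give 14.3%. The comparison with the class therefore does not separate low variation from high counts.

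Whether libraries high at one locus were high at another was asked over the 8 libraries for the 6 pairs of strongest peaks. Fos and Egr1 went together most, with a Pearson r of 0.792 (exact permutation p = 0.0192, adjusted over 6 pairs 0.115) and a Spearman rho of 0.619 (exact permutation p = 0.115, adjusted 0.649). Without Vwf+Gata1+ replicate 2 and Vwf-Gata1+ replicate 1, the 2 libraries farthest from the Fos median, r was 0.633 (exact permutation p = 0.169), and with deviations from the group means it was 0.788. The other 5 pairs had r between -0.287 and 0.302, with adjusted exact permutation p = 0.995 each, and rho between -0.214 and 0.500 (adjusted exact permutation p of 0.649 or more). The relation of Fos with Egr1 therefore did not pass the correction. Leaving out the 2 libraries farthest from the median of the first locus named moved 2 of the other pairs most. Egr1 with Ier2 went from r = 0.0028 to 0.626 (exact permutation p = 0.167) without Vwf-Gata1+ replicates 1 and 2. Fos with Ier2 went from 0.025 to 0.517 (exact permutation p = 0.279) without Vwf+Gata1+ replicate 2 and Vwf-Gata1+ replicate 1. The order of the pairs therefore rests on a few libraries.

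How concentrated a library is was measured as the percentage of its counts that fell in the top 1% of tested peaks. This ran from 8.12% to 9.64% and was lowest in replicate 1 of each group. Signal at the strongest Fos peak had r = 0.775 with this share (exact permutation p = 0.0249, adjusted over 4 loci 0.0997; rho 0.595, exact permutation p = 0.132, adjusted 0.529), and that at Egr1 r = 0.635 (exact permutation p = 0.0898, adjusted 0.180; rho 0.452, exact permutation p = 0.267, adjusted 0.535). Without the 2 libraries farthest from the median share, r was 0.0970 and 0.185. Leaving out the extremes of the share narrows its range, which tends to lower r by itself. This fall therefore cannot show whether the relations rest on those libraries alone. At Junb and Ier2 r was -0.357 and -0.261 (exact permutation p = 0.386 and 0.529, adjusted 0.515 and 0.529), with rho of -0.286 and 0.0 (exact permutation p = 0.501 and 1.0, adjusted 0.668 and 1.0). The part of library concentration in the values at these loci was not tested.

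Replicate 1 was the highest library of its group in both groups at 11 of the 32 peaks (34.4%), which is 3 of 8 at Fos, 3 of 7 at Egr1, 4 of 10 at Junb and 1 of 7 at Ier2. Over all tested peaks this was so at 10.2%, and in the strongest of the 3 signal classes at 8.77%. Replicate 1 was the lowest library of both groups at 1 of the 32 peaks, and at 6244 of the 32347 peaks of that class. These are counts without a test, noticed after the values were seen, and the 32 peaks share the same 2 libraries. At the strongest Fos and Egr1 peaks replicate 1 was the lowest library of the Vwf-Gata1+ libraries instead. The mean log2 CPM of the 2 replicate 1 libraries minus that of the other 6 had a median of 0.14 over the 32 peaks. Over all tested peaks the median was 0.02, and over the strongest signal class -0.05. Over the 32 peaks this difference ran from -0.36 to 1.19, the highest at the narrow Junb peak described above. These 2 libraries also had the largest total counts, 7753538 and 7670844. The part of depth in this pattern was not tested.

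**Figure D4:**
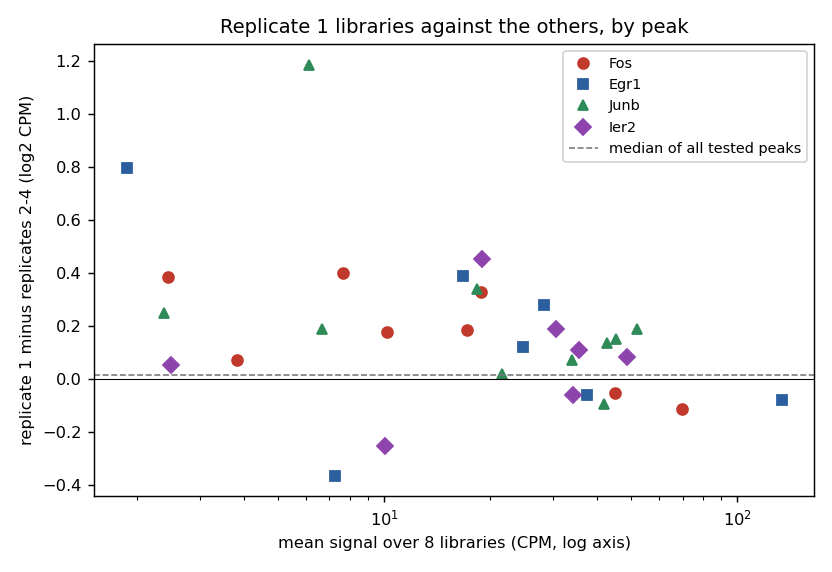
For each of the 32 peaks, the mean log2 CPM of the 2 replicate 1 libraries minus that of replicates 2 to 4 is plotted against mean signal (CPM, log axis), with colours for the loci and a dashed line for the median of all tested peaks. The strongest Fos and Egr1 peaks lie below 0, and most of the weaker peaks lie above the dashed line, up to 1.19 at Junb.

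The surroundings of the loci were compared as well. Within 100 kb outside the windows, 125 tested peaks gave 0 calls past an adjusted p of 0.05 in edgeR and 5 at an unadjusted p under 0.05. Over all tested peaks the shares were 0.0144% and 6.72%. DESeq2 gave 0 and 2, and limma-voom 0 and 7, where no share over all peaks was taken for the unadjusted counts. Their median log2 fold change was -0.01, by locus -0.09 around Fos, -0.07 around Egr1, -0.01 around Junb and 0.06 around Ier2. Inside the windows the medians were -0.03, 0.07, 0.07 and 0.0077 in the same order.

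The peaks elsewhere in the genome whose pattern over the 8 libraries was most like that of each strongest peak were sought among 32265 peaks of the strongest signal class. For Fos this was a peak at chromosome 3, 28703929 to 28705072 (r = 0.988), for Egr1 one at chromosome 4, 148810246 to 148812111 (r = 0.964), for Junb one at chromosome 5, 31171736 to 31172696 (r = 0.986), and for Ier2 one at chromosome 3, 136424102 to 136425182 (r = 0.970). With 8 libraries such values are common: 122, 75, 47 and 41 candidates had r above 0.9, and these r are descriptions over libraries that share depth and concentration.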

How the data were processed

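The deposited data are raw counts for 134473 peaks in 8 libraries. The submitters' processing notes name mm9 as build and, as tools, Bowtie2, MACS2, Picard, SAMtools, FastQC and Trim Galore. Their versions, whether reads or fragments were counted, the shift of read ends for the transposase, the handling of duplicates and the merging of peaks are not given in the sources used here. The extract protocol in the labels names Omni-ATAC, in which Tn5 transposase tags open DNA. Peak starts were read as 1-based.

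Peaks were filtered with edgeR's filterByExpr (minimum count 10, minimum total 15), scaled by TMM, and tested over all 97040 peaks kept with edgeR's quasi-likelihood test and Benjamini-Hochberg adjustment (threshold 0.05). Standard errors were derived from the log2 fold change and the F statistic (|log2 fold change|/√F). CPM uses TMM-scaled totals. Replicate 1 differences used a pseudocount of 0.01 CPM. The fit was also run on simulated data with known changes, in which peaks varied independently, and the outcome is not given here. Effects shared by the peaks of a library beyond its scaling were not simulated.

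The strongest and second peak of each locus, and any at an unadjusted p under 0.05, were to be given in full. Every other peak described singly was chosen after its values were seen. Likeness between peaks was the Pearson r of log2 CPM (prior count 2). Members and lists were chosen with earlier results of these data known. No mm9 annotation was used, so other immediate early genes and marker loci were not analysed here. Alternatives were RLE, total count and loess scaling, 2 other filters, DESeq2, limma-voom, a replicate block, each library left out and windows widened by 10 kb. Versions: Python 3.11.15, SciPy 1.17.1, and DESeq2 1.42.0, limma 3.58.1 and edgeR 4.0.16 under R 4.3.3.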

Additional observations from a re-analysis of the deposited data

Results flagged for a closer look

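In 80 groups of 4 libraries (32 peaks, 4 summed signals and 4 shares, in each sort), a single library stood far from the other 3 in 2 cases, where chance gives about 1 in 20. At the Junb peak at 87489465 to 87490284, the highest Vwf+Gata1+ library, replicate 2, had 44.7 CPM against 39.4 to 39.9 CPM in the others, a gap of 0.903 of the group's range. At the Ier2 peak at 87185807 to 87186065, the lowest Vwf+Gata1+ library, replicate 3, had 1.38 CPM, from 6 counts, against 2.44 to 2.63 CPM, a gap of 0.849 of the range.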

How the results depend on the processing

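The count of peaks past the threshold was 0 in the main fit and in all 19 alternatives, with up to 3 at an unadjusted p under 0.05. For the alternative fits, no share over all peaks was taken at the unadjusted p. The replicate number as a block gave 0 calls among the 32 peaks and 3 at an unadjusted p under 0.05. Among all tested peaks it gave 511 calls, where the main fit gave 14. No label says that a number pairs libraries. The deviations of same-numbered libraries had correlations of 0.301, 0.163, 0.0740 and 0.0103 for numbers 1 to 4, over 0.1 for numbers 1 and 2 only, and for 5 of 8 libraries the best match bore the same number, which is only a hint. With the block, the strongest peaks had log2 fold changes of 0.04, 0.08, 0.13 and 0.0083 at Fos, Egr1, Junb and Ier2. Their standard errors were 0.063, 0.056, 0.069 and 0.071 in the same order. In the main fit, which does not use the number, these were 0.084, 0.082, 0.089 and 0.089. The directions at Fos and Ier2 were not fixed. Loess offsets gave -0.012 and -0.029, and total count scaling gave -0.012 at Ier2. A covariate chosen after seeing the data was each library's share of counts in the 1% of tested peaks strongest over all libraries. It gave -0.0047 at Fos, 0.041 at Egr1, 0.179 at Junb and 0.027 at Ier2. The Junb value had the lowest unadjusted p of the strongest peaks in any setting, 0.0156 in edgeR (adjusted p = 0.495). Leaving out 1 library gave -0.019 to 0.060 at Fos, 0.016 to 0.136 at Egr1, 0.085 to 0.192 at Junb and -0.026 to 0.055 at Ier2. For the peaks next in strength it gave -0.067 to 0.028 at Fos, -0.034 to 0.125 at Egr1, 0.017 to 0.130 at Junb and -0.082 to 0.013 at Ier2. The second Fos peak was at 0.0053 with no filter, and the narrow Junb peak at -0.040 with limma-voom and at -0.467 to 0.359 without 1 library. Correlations near 0 did not hold their value: Egr1 with Junb went to -0.0096 with total counts, -0.231 with deviations from group means and -0.166 without 2 libraries, and Egr1 with Ier2 to -0.014, -0.0017 and 0.626 under the same settings. Fos with Ier2 went to 0.517 without 2 libraries. Widening the windows lowered the share of the strongest peak, by construction, to 36.2% at Fos, 44.1% at Egr1, 14.6% at Junb and 25.3% at Ier2. The log2 ratios of the summed signals moved by less than the SD within groups in all 48 alternatives, but not always on one side of 0: without 1 library they ran from -0.049 to 0.021 at Fos, 0.057 to 0.121 at Egr1, 0.022 to 0.092 at Junb and -0.0028 to 0.065 at Ier2. The cause of the other changes was not tested. The weakest peak, with 6 to 21 counts per library, had a standard error of 0.34, and the strongest, with 560 to 1074 counts, one of 0.08.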
